A study of Homo sapiens with 6 samples.

Results

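The nuclear genes for the subunits of the mitochondrial respiratory chain were examined in cells labelled Hep3B, a line derived from a human hepatocellular carcinoma, after transfection with si-SNHG17-1 or with si-NC. Members were the rows of the deposited table whose symbols match a pattern of chain subunits (NDUF, SDH, UQCR, CYC1, COX and ATP5 names). The pattern matched 136 rows, of which 52 are pseudogenes in GENCODE release 29, which left 84 members of the 58243 genes in the table. Of these, 82 are subunits of the 5 complexes: 37 of complex I, 4 of complex II, 10 of complex III, 15 of complex IV and 16 of complex V. NDUFA4 was placed with complex IV, where its protein is now assigned. The other 2 are ATP5S, a factor that is not a subunit, and a second row under the symbol SDHD (ENSG00000255292.7), which GENCODE names AP002884.3.

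The study holds 2 groups of 3 RNA sequencing libraries from total RNA. The first group received si-SNHG17-1, a small interfering RNA named for the long noncoding RNA SNHG17, and the other received si-NC, taken here as the control siRNA. Both groups were grown in DMEM with serum. These libraries hold 1 siRNA against SNHG17, so effects of the target and of the siRNA itself cannot be told apart. Nothing in the labels says that replicates came from different cultures, and the p-values below therefore reflect library-to-library spread, part or all of which may be technical.

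The respiratory chain sits in the inner mitochondrial membrane. Complexes I and II feed electrons from NADH and succinate into ubiquinone, complex III passes them to cytochrome c, and complex IV reduces oxygen. Complexes I, III and IV pump protons, and complex V, the ATP synthase, uses the gradient to make ATP. Most subunits are encoded in the nucleus and imported. A part of every complex except complex II comes from mitochondrial DNA, so both genomes must supply matching parts.

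Total counts ranged from 30207055 to 42271168 per library, and a floor of 3 counts stood between 0.0710 and 0.0993 CPM (counts scaled to a common library total), counting error only. Within groups, log2 CPM correlated between 0.966 and 0.973 across genes, and between groups between 0.953 and 0.965. SNHG17 had 307, 338 and 254 counts in the si-SNHG17-1 libraries, against 843, 953 and 948 in the si-NC libraries, a log2 fold change of −1.51 ± 0.12 (SE; edgeR quasi-likelihood adjusted p = 0.00101). The labelled cell type was not borne out by its markers: 8 of 9 hepatocyte and hepatoma markers were under 1 CPM in every library, and GPC3 and TTR were at 0. Their summed level was 3.18 to 4.42 CPM in si-SNHG17-1 libraries and 2.06 to 2.98 CPM in si-NC libraries. Of 6 fibroblast markers, 5 were detected above that level, with a sum of 247 to 261 CPM in si-SNHG17-1 libraries and 180 to 196 CPM in si-NC libraries, and COL1A2 at 0. The 37 genes of the mitochondrial chromosome, including the 13 for chain subunits, were listed at 0 in every library, so the mitochondrially encoded subunits are not given here.

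The promoters shown here belong to the COX8A and ATP5C1 genes, which fell, and to SDHB of complex II, which carries all 3 motifs searched and was not called, a call being an edgeR adjusted p under 0.05. Each is the stretch from 250 bases before to 50 bases after the start site, from RefSeq (GRCh38.p14). Capitals mark matches, on either strand, to GCATGCGC for NRF1, CCGGAAG for ETS factors such as GABPA, and AAGATGGCG for YY1, factors known for driving chain genes. COX8A lies at chr11:63974370-63974669 on the plus strand, ATP5C1 (ATP5F1C in RefSeq) at chr10:7787927-7788226 on the plus strand and SDHB at chr1:17053983-17054282 on the minus strand.
COX8A: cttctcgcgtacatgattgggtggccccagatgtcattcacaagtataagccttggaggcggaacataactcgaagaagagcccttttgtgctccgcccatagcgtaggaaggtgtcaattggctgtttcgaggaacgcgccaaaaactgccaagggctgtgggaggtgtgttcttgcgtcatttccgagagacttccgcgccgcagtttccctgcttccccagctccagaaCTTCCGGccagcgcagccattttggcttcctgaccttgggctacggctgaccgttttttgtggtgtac
ATP5C1: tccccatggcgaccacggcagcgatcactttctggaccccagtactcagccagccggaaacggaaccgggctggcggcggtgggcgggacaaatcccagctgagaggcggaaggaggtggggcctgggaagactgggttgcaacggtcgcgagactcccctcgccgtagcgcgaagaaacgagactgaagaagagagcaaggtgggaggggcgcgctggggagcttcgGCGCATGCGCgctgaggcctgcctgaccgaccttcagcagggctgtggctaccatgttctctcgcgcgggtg
SDHB: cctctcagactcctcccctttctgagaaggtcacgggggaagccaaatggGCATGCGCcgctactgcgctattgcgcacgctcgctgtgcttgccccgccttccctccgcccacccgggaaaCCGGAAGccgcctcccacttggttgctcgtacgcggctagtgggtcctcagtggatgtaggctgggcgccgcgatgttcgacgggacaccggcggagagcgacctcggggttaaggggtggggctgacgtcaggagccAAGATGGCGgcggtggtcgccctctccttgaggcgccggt
In ATP5C1 the capitals hold 2 overlapping NRF1 matches, 1 on each strand, since the letters GCGCATGCGC are their own reverse complement.

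A promoter was found for 65 of the 84 members, 62 of them tested subunits. The NRF1 letters stood in 13 of these 62 promoters (21.0%), against 5.33% of the 12182 promoters found for tested genes. For the ETS letters the values were 18 (29.03%) against 17.8%, and for the YY1 letters 8 (12.9%) against 3.65%. At least 1 of the 3 motifs was present in 29 promoters (46.8%), against 24.5% of all, and in 4 members' promoters 2 matches overlapped. The median log2 fold change was −0.20 over the 29 subunits with a match and −0.21 over the 33 without. The values ran from −0.67 to 0.21 with a match, 24 of them below 0, and from −0.49 to 0.19 without, 29 below 0. Whether fold changes differ by motif was not tested. These matches are letters in a window and say nothing of binding.

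Transcripts of the chain were lower in si-SNHG17-1 libraries by a small amount in most subunits of complexes I, III, IV and V, and not in complex II. Of the 78 members that passed the filter on low counts, 66 (84.6%) had a log2 fold change below 0, against 50.2% of the 18679 genes tested. Over genes with a mean of 10 CPM or more, the level of all but 2 of the tested members, that share was 52.4%. The median log2 fold change was −0.20 over the members, with a lowest value of −0.76, and −0.00 over all genes tested. In a bulk sample, less of these transcripts per cell and fewer cells of a kind that is rich in them cannot be told apart.

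Summed over the 84 members, the level was 7343, 7491 and 7274 CPM in the si-SNHG17-1 libraries, against 8262, 8133 and 8941 CPM in the si-NC libraries. The groups did not overlap, and replicate 3 of si-NC was the highest. The means were 7369 ± 111 CPM in si-SNHG17-1 and 8446 ± 434 CPM in si-NC (SD, n = 3 each), so the sum stood at 87.3% of that in si-NC. As a share of all counts the members made up 0.740% to 0.758% in si-SNHG17-1 libraries and 0.803% to 0.879% in si-NC libraries.

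At an adjusted p under 0.05, 7 members (8.97%) fell, against 5.21% of all genes tested, and 1 member (1.28%) rose, against 5.25% of all genes tested. The remaining 70 were not called. At an unadjusted p under 0.05, 26 members (33.3%) were lower, against 13.7% of all genes tested, and 1 (1.28%) was higher, against 13.1%. In 29 members (37.2%) every si-SNHG17-1 library lay below every si-NC library, against 17.3% of all genes, and in 4 (5.13%) every si-SNHG17-1 library lay above, against 16.4%. Of the 18679 genes tested, 10657 had a mean of 10 CPM or more, and these shares were not taken over those alone. Of the 7 members that fell, COX8A alone kept its call in each of the 6 fits with a library left out.

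**Figure D1:**
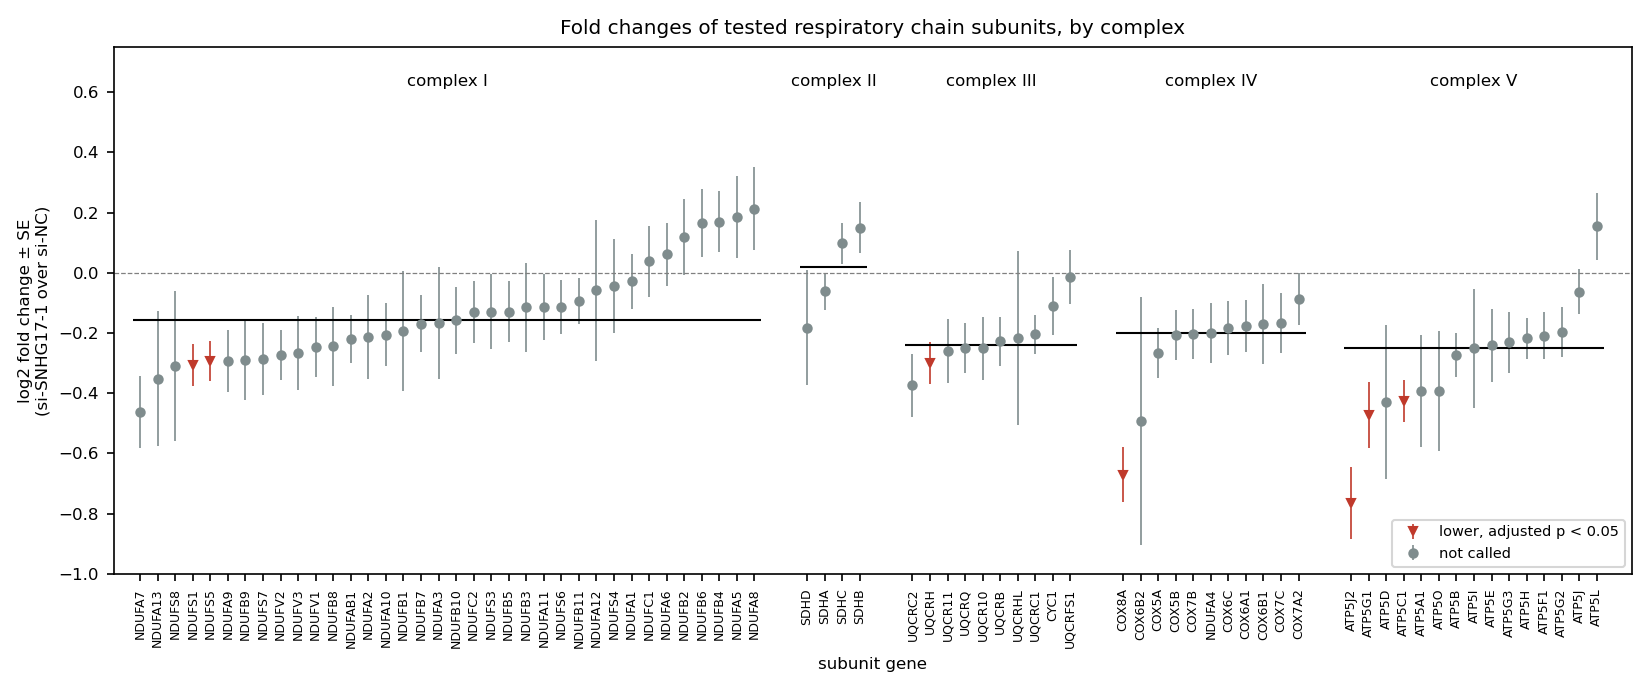
The log2 fold changes of the tested subunits that fell or were not called (si-SNHG17-1 over si-NC, y axis) are plotted by complex along the x axis, sorted within each complex, with standard errors as bars and the median over all tested subunits of each complex as a black line. Most points of complexes I, III, IV and V lie below 0, from −0.76 for ATP5J2 upward, and the median of complex II is 0.02.

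The fibroblast marker sum above was higher in si-SNHG17-1 libraries, mainly through COL1A1, at 97.3 to 118 CPM in si-SNHG17-1 and 79.4 to 84.0 CPM in si-NC, and COL3A1, at 90.7 to 95.4 CPM in si-SNHG17-1 and 55.9 to 67.4 CPM in si-NC. DCN was also higher in every si-SNHG17-1 library, PDGFRB was lower in every one, at 5.76 to 7.64 CPM against 7.81 to 8.28 CPM in si-NC, and LUM overlapped. The 4 endothelial markers summed to 5.96 to 7.73 CPM in si-SNHG17-1 libraries and 2.23 to 3.71 CPM in si-NC libraries. That difference was CDH5, at 5.23 to 6.88 CPM in si-SNHG17-1 and 1.14 to 2.44 CPM in si-NC, while PECAM1 was lower in every si-SNHG17-1 library, VWF overlapped and KDR was at 0 in all. The 5 leukocyte markers summed to 42.2 to 61.6 CPM in si-SNHG17-1 libraries and 32.4 to 38.0 CPM in si-NC libraries, nearly all of it CD68, which many other cells also express. Muscle and testis markers, 4 each, were under 1 CPM in every library. The part of these markers in the result was not tested.

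Complex I takes electrons from NADH. Of its 37 subunits, all tested, 2 fell and 1 rose, 29 had a log2 fold change below 0 and the median was −0.16. Over all genes tested 5.21% fell, 5.25% rose and 50.2% were below 0, and the count of falls in complex I is near the share that fell. The summed level was 2379 ± 88.8 CPM in si-SNHG17-1 libraries and 2635 ± 145 CPM in si-NC libraries (SD, n = 3 each), or 90.3%. Without replicate 3 of si-NC the median was −0.08.

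The core subunits hold the flavin and the iron-sulphur clusters. NDUFS1, the largest subunit and a carrier of such clusters, had 173, 163 and 171 CPM in si-SNHG17-1 libraries, against 218, 209.8 and 198 CPM in si-NC libraries. No values overlapped between groups, and the log2 fold change was −0.31 ± 0.07 (SE; edgeR adjusted p = 0.035). Its call was lost in 5 of the 6 fits with a library left out, and kept without replicate 3 of si-NC. NDUFS3, NDUFS7, NDUFS8, NDUFV1 and NDUFV2, also of the core, had log2 fold changes of −0.31 to −0.13 and were not called.

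Among the accessory subunits, which surround the core, NDUFS5 of the membrane arm was the only call. It had 142, 139.7 and 144 CPM in si-SNHG17-1 libraries, against 169.6, 172 and 180.3 CPM in si-NC libraries. The log2 fold change was −0.29 ± 0.07 (SE; edgeR adjusted p = 0.033), and the call was lost in each fit with a library left out. NDUFA7 of the matrix arm had the lowest value in the complex and missed the threshold: it had 25.9, 30.9 and 26.9 CPM in si-SNHG17-1 libraries, against 37.8, 35.4 and 41.9 CPM in si-NC libraries. Its groups did not overlap, with a log2 fold change of −0.46 ± 0.12 (SE; edgeR adjusted p = 0.051). NDUFC2, which collected the most counts in the complex, stood at 276 ± 13.3 CPM in si-SNHG17-1 libraries and 302 ± 40.8 CPM in si-NC libraries (SD, n = 3 each). The values overlapped (log2 fold change −0.13, edgeR adjusted p = 0.48). The matrix arm accessory subunits had a median of −0.11 (9 subunits, 7 below 0) and those of the membrane arm −0.13 (21 subunits, 16 below 0). Above 0 but not called were NDUFA5, NDUFA6, NDUFA8, NDUFB2, NDUFB4, NDUFB6 and NDUFC1, between 0.04 and 0.21.

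Complex II, the succinate dehydrogenase, is also an enzyme of the citric acid cycle and has no mitochondrially encoded subunit. None of its 4 subunits was called, and 2 were below 0. The sum was 799, 761 and 739.6 CPM in si-SNHG17-1 libraries, against 773, 767 and 762 CPM in si-NC libraries. The groups overlapped, with means of 767 ± 30.2 CPM in si-SNHG17-1 and 767 ± 5.47 CPM in si-NC (SD, n = 3 each), a ratio of 99.9%.

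SDHA, the flavoprotein and the subunit with the most counts, averaged 401 ± 11.1 CPM in si-SNHG17-1 libraries and 419 ± 17.1 CPM in si-NC libraries (SD, n = 3 each; log2 fold change −0.06, edgeR adjusted p = 0.58). SDHB, the iron-sulphur subunit whose promoter is printed above, had 154, 131 and 133 CPM in si-SNHG17-1 libraries, against 127, 123 and 128 CPM in si-NC libraries. Every si-SNHG17-1 library lay above every si-NC library, yet the log2 fold change of 0.15 ± 0.08 missed the threshold (SE; edgeR adjusted p = 0.31). The membrane anchor SDHC gave 0.10 ± 0.07 (SE; edgeR adjusted p = 0.41), also with no overlap, and the anchor SDHD −0.18 ± 0.19 (SE; edgeR adjusted p = 0.61), with overlap. The second SDHD row had 2 to 17 counts and was not tested. Whether complex II differs from the other complexes was not tested.

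**Figure D2:**
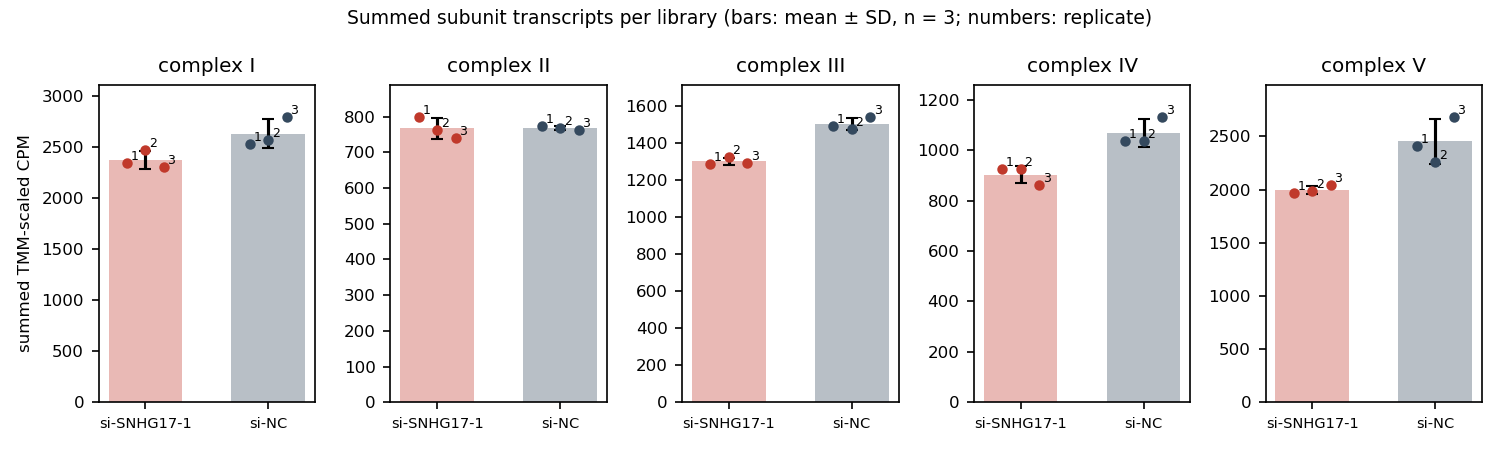
Summed TMM-scaled CPM of the subunits of each complex (y axis, from 0) in the si-SNHG17-1 libraries and the si-NC libraries, with circles for replicates 1 to 3 and bars for the mean ± SD. The groups overlap in complex II, where the means are 767 CPM each, and not in complexes I, III, IV and V.

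Complex III passes electrons from ubiquinol to cytochrome c. Its 10 subunits were all below 0, with a median of −0.24, and 1 fell. Of all genes tested, 50.2% were below 0 and 5.21% fell, and this 1 call is not read as a result about the complex. The sum was 1286, 1321 and 1292 CPM in si-SNHG17-1 libraries, against 1490.1, 1474 and 1539.8 CPM in si-NC libraries, or 86.6% in the mean. UQCRH, the hinge protein that binds cytochrome c1, had 141, 151 and 145 CPM in si-SNHG17-1 libraries, against 172, 180.4 and 187 CPM in si-NC libraries. Its groups lay apart, and its log2 fold change was −0.30 ± 0.07 (SE; edgeR adjusted p = 0.038), a call kept in 1 of the 6 fits with a library left out, that without replicate 1 of si-NC.

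UQCRH has a near-identical copy, UQCRHL, whose rows can split reads between them. UQCRHL held 0.950 CPM per kb of exon in si-SNHG17-1 libraries and 1.10 CPM per kb in si-NC libraries, while UQCRH held 104 CPM per kb in si-SNHG17-1 and 128 CPM per kb in si-NC. The core proteins UQCRC1 and UQCRC2, which flank the complex on the matrix side, both had groups without overlap. UQCRC2 had the lowest value in the complex, with 148, 152 and 144 CPM in si-SNHG17-1 libraries, against 222, 181 and 173 CPM in si-NC libraries (log2 fold change −0.37 ± 0.10 SE, edgeR adjusted p = 0.063). UQCRC1, with the most counts, gave −0.20 ± 0.07 (SE; edgeR adjusted p = 0.095). The catalytic subunits had the values nearest 0: CYC1, the cytochrome c1, gave −0.11 and UQCRFS1, the Rieske iron-sulphur protein, −0.01, both with overlap. The sign of UQCRFS1 turned to 0.027 when libraries were scaled by total counts.

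Complex IV, the cytochrome c oxidase, has a mitochondrially encoded core ringed by nuclear subunits, some in tissue-restricted isoforms. Of 15 subunits, 11 were tested, all 11 below 0 with a median of −0.20, and 1 fell. Of all genes tested, 50.2% were below 0 and 5.21% fell, and this 1 call is not read as a result about the complex. The sum was 923, 924 and 863 CPM in si-SNHG17-1 libraries, against 1035, 1035 and 1132 CPM in si-NC libraries, or 84.6% in the mean. Without NDUFA4 the median was −0.19.

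COX8A (ENSG00000176340.3, chromosome 11, 63974607 to 63976543, GRCh38) encodes the widely expressed form of subunit VIII, a small subunit of the membrane part. It had 3067, 3759 and 2355 counts in si-SNHG17-1 libraries, against 4749, 5255 and 5543 in si-NC libraries. In scaled units that was 80.3, 89.2 and 76.7 CPM in si-SNHG17-1 libraries, against 126.0, 125.9 and 139.8 CPM in si-NC libraries. The groups stood well apart, at means of 82.1 ± 6.47 CPM in si-SNHG17-1 and 131 ± 7.99 CPM in si-NC (SD, n = 3 each). The log2 fold change was −0.67 ± 0.09 (SE; edgeR adjusted p = 0.0058). The adjusted p stayed between 0.013 and 0.042 with each library left out. AP000721.1, a gene that covers 34.5% of its exon bases on the same strand, had 0 to 6 counts per library.

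The other ubiquitous subunits of complex IV that the symbol pattern matched were not called, with log2 fold changes between −0.27 for COX5A and −0.09 for COX7A2. COX4I1, a complex IV subunit outside the pattern, was nearer 0, at −0.06 ± 0.08 (SE; edgeR adjusted p = 0.73), with overlap. COX6A1, with the most counts, averaged 202 ± 13.6 CPM in si-SNHG17-1 libraries and 229 ± 16.8 CPM in si-NC libraries (SD, n = 3 each; edgeR adjusted p = 0.24). The muscle or testis isoforms were at or near 0: COX6A2 had no count in any library, and COX7A1, COX7B2 and COX8C had at most 5. COX6B2, a testis isoform, was tested at 0.521 to 1.07 CPM in si-SNHG17-1 libraries and 0.876 to 1.24 CPM in si-NC libraries, which overlapped. No exchange of isoforms was detectable at this depth.

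Complex V, the ATP synthase, has an F1 head that makes ATP, a c ring that turns with the proton flow, and stalk and membrane subunits that hold and dimerise it. Of its 16 subunits 15 were tested, 3 fell, 14 were below 0 and the median was −0.25. Of all genes tested, 5.21% fell and 50.2% were below 0. The sum was 1966, 1984 and 2043 CPM in si-SNHG17-1 libraries, against 2414, 2263 and 2684 CPM in si-NC libraries, or 81.4% in the mean. ATP5L2 had no count.

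In the F1 head, the gamma subunit ATP5C1 (ENSG00000165629.19, chromosome 10, 7788129 to 7807815), the turning shaft, had 160.2, 153 and 152 CPM in si-SNHG17-1 libraries, against 219, 199 and 206 CPM in si-NC libraries. All 3 si-SNHG17-1 values lay below the si-NC values, and the log2 fold change was −0.43 ± 0.07 (SE; edgeR adjusted p = 0.012). The call was kept without any si-NC library and lost without any si-SNHG17-1 library, with adjusted p of up to 0.054. ATP5B, the catalytic beta subunit and the member with the most counts, had 616, 589 and 665 CPM in si-SNHG17-1 libraries, against 716, 736 and 809 CPM in si-NC libraries. Its groups did not overlap, and it just missed the threshold (log2 fold change −0.27 ± 0.07 SE, edgeR adjusted p = 0.055). The alpha subunit ATP5A1 had 331, 353 and 342 CPM in si-SNHG17-1 libraries, against 467, 314 and 565 CPM in si-NC libraries. The si-NC values straddled those of si-SNHG17-1, and it was not called (edgeR adjusted p = 0.23).

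Among the stalk and membrane subunits, ATP5J2 (ENSG00000241468.7, chromosome 7, 99448475 to 99466331) encodes subunit f. It had 1945, 2406 and 1477 counts in si-SNHG17-1 libraries, against 2898, 3679 and 3971 in si-NC libraries. Scaled, these were 50.9, 57.1 and 48.1 CPM in si-SNHG17-1 libraries, against 76.9, 88.1 and 100.1 CPM in si-NC libraries, with no overlap. This was the largest fall of any member, with a log2 fold change of −0.76 ± 0.12 (SE; edgeR adjusted p = 0.010). The call was lost without replicate 1 or without replicate 3 of si-SNHG17-1, at an adjusted p of up to 0.062. ATP5MF-PTCD1, a readthrough gene, covers 7.8% of the exon bases of ATP5J2. This readthrough gene had 0 to 72 counts in si-SNHG17-1 libraries and 72 to 87 in si-NC libraries. PTCD1 had a log2 fold change of −0.29 (edgeR adjusted p = 0.19). ATP5L, subunit g, was the complex V subunit above 0, at 0.15 ± 0.11 (SE; edgeR adjusted p = 0.43), with overlap.

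The c ring is built from identical peptides made by 3 genes, ATP5G1, ATP5G2 and ATP5G3. ATP5G1 had 42.6, 39.1 and 38.3 CPM in si-SNHG17-1 libraries, against 52.7, 51.6 and 62.2 CPM in si-NC libraries. It fell by 0.47 on the log2 scale (SE 0.11; edgeR adjusted p = 0.035), with no overlap, and the call was lost in each fit with a library left out. ATP5G2 and ATP5G3 had log2 fold changes of −0.20 and −0.23, with no overlap either, and were not called. Per kb of exon, ATP5G1 made up 25.9 ± 0.780% of the c ring transcripts in si-SNHG17-1 libraries and 29.6 ± 0.658% in si-NC libraries (SD, n = 3 each). The groups did not overlap, and the two-sided exact permutation p of 0.1 is the smallest that 3 against 3 allows. ATP5G2 made up 49.7 ± 0.845% in si-SNHG17-1 and 46.9 ± 0.770% in si-NC, with the same two-sided exact permutation p of 0.1. ATP5G3 made up 24.4 ± 0.964% in si-SNHG17-1 and 23.6 ± 0.355% in si-NC, with an exact permutation p of 0.3. Raw p-values are given for these 3 shares, which sum to a whole.

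**Figure D3:**
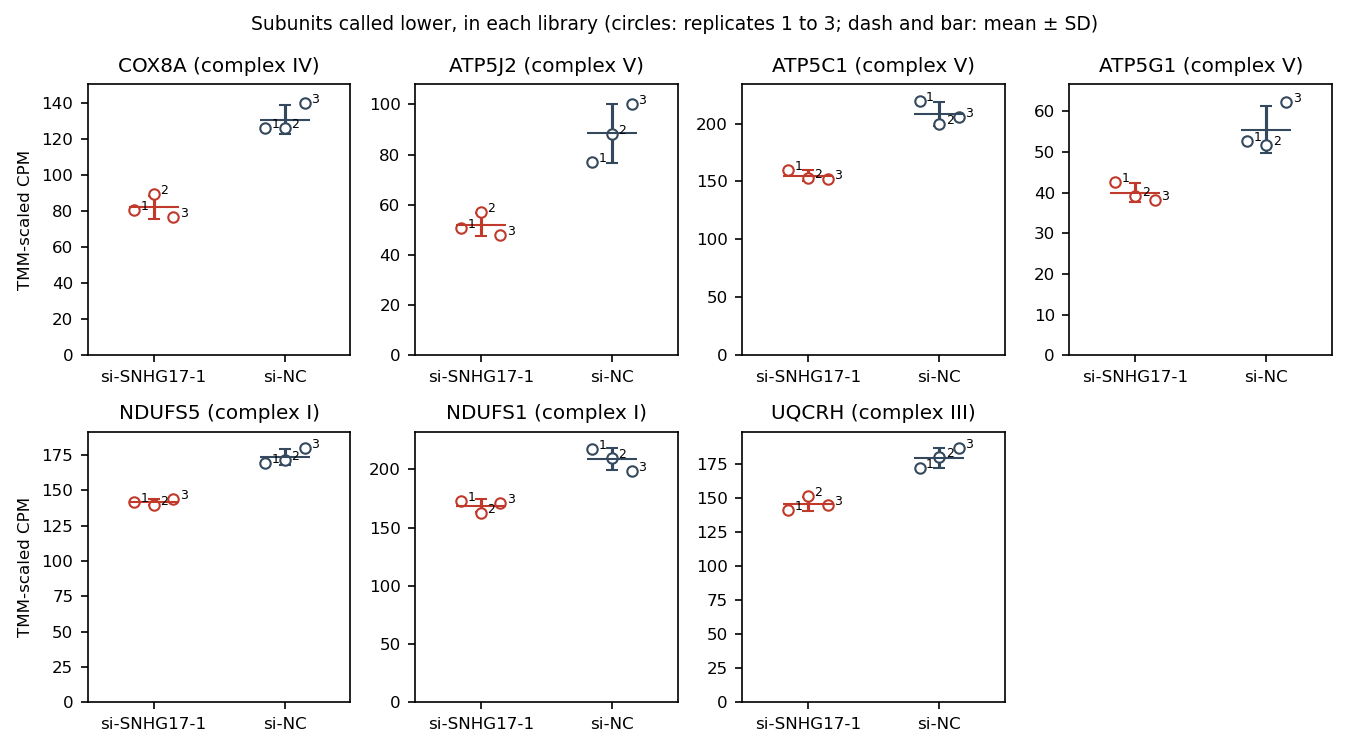
TMM-scaled CPM (y axis, from 0) of the 7 subunits that fell, in the si-SNHG17-1 libraries and the si-NC libraries, with numbered circles for replicates 1 to 3 and a dash and bar for the mean ± SD. The groups do not overlap in any of them, and COX8A averages 82.1 CPM in si-SNHG17-1 against 131 CPM in si-NC.

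The subunits that fell belong to complexes I, III, IV and V, 2, 1, 1 and 3 of the 37, 10, 11 and 15 tested. Over all genes tested 5.21% fell, which is near the share in complex I. The 1 call in complex III and the 1 in complex IV are not read as results about those complexes. Differences between complexes were not tested. The medians of complexes III, IV and V stayed below −0.15 with each library left out, and those of complex I and II ranged from −0.19 to −0.08 and from 0.01 to 0.06. Replicate 3 of si-NC, with the highest sums, had the greatest weight in complexes I, III, IV and V.

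**Figure D4:**
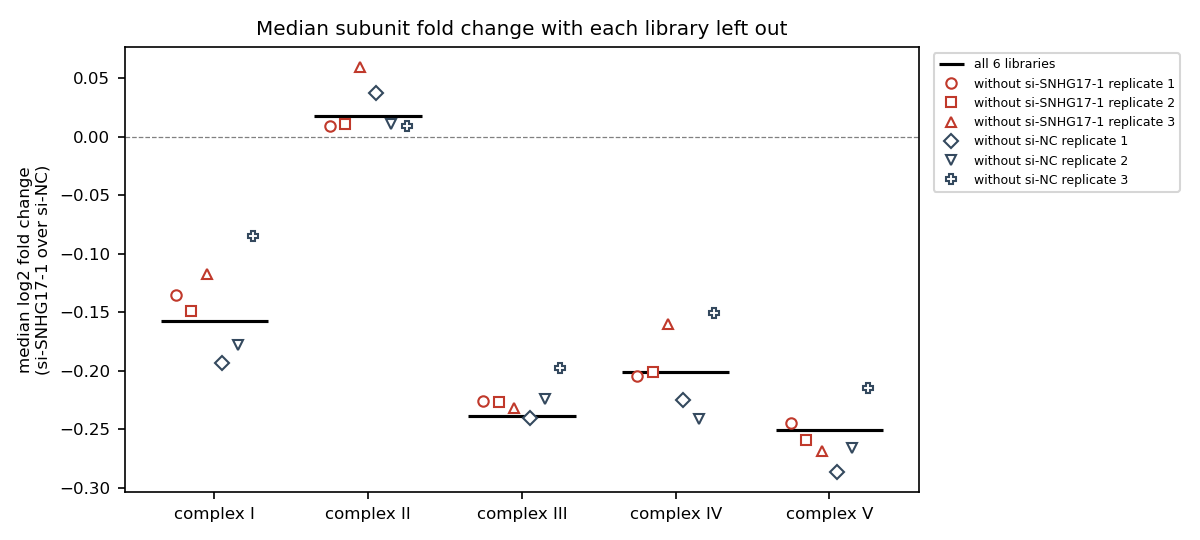
Median log2 fold change of the tested subunits of each complex (y axis) with all 6 libraries (black lines) and with each library left out in turn (symbols). The medians of complexes III, IV and V lie between −0.29 and −0.15, complex I reaches −0.08 without replicate 3 of si-NC, and complex II stays above 0.

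Many chain genes lie close to a neighbour. Exon bases are shared with another gene under 45 member symbols, 33 of them with a gene on the opposite strand. The rows under the symbol SDHD were counted together there. Whether counting used strand is not given in the sources used here, so reads of such pairs may be mixed. Among the tested members the median log2 fold change was −0.21 over the 44 that share exon bases and −0.20 over the 34 that share none. Of the members that fell, COX8A, ATP5J2 and NDUFS1 share bases with a neighbour. NDUFS1 shares 11.5% with the antisense gene AC007383.3, which had 186 to 361 counts in si-SNHG17-1 libraries and 342 to 396 in si-NC libraries. The 52 pseudogene rows, which could take reads from their parent genes, held 230 to 371 counts per library in si-SNHG17-1 and 328 to 407 in si-NC. Nearly all of these lay in UQCRFS1P1, a pseudogene of UQCRFS1, with 213 to 356 counts in si-SNHG17-1 libraries and 308 to 400 in si-NC libraries. In 43 of the rows there was no count in any library.

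The 3′ UTRs were searched for the 6 letters TCAATC, a word chosen with earlier results of these data known. The sources used here do not give the siRNA sequences, so the word was not derived from them. For each gene the longest 3′ UTR among its protein-coding transcripts was searched. It stood in the 3′ UTR of 12 of the 78 tested members (15.4%), against 19.4% of the 13641 tested genes with a 3′ UTR. The members' 3′ UTRs were shorter, with a median of 446.5 bases against 1311. The median log2 fold change was −0.20 over members with the word and −0.20 over those without, while over all genes it was −0.06 with and 0.00 without. Because of how the word was chosen, the values over all genes are no test of it. Of the members that fell, ATP5J2 and NDUFS1 hold the word and COX8A, ATP5C1, ATP5G1, NDUFS5 and UQCRH do not. The site in ATP5J2, the member with the lowest log2 fold change, is printed with the word in capitals, from chr7:99458242-99458271 on the minus strand of GRCh38.
ATP5J2: aggaacacaatcTCAATCgttgctgaatcc

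Other genes of the chain and of its upkeep were counted from lists of their known members. The share called over all genes tested, for comparison with each list, was 5.21% lower and 5.25% higher. Of 8 subunits and close partners outside the symbol pattern, such as COX4I1 and cytochrome c (CYCS), 7 were tested. Of these, 1 fell, 6 were below 0 and the median was −0.10. Their summed level was 548 ± 12.7 CPM in si-SNHG17-1 libraries and 534 ± 58.5 CPM in si-NC libraries (SD, n = 3 each), or 102.6%. CYCS was the gene above 0, at 0.44 ± 0.19 (SE; edgeR adjusted p = 0.18), with overlap. The gene that fell was C14orf2, a small proteolipid of the ATP synthase, with 36.4, 38.1 and 37.9 CPM in si-SNHG17-1 libraries, against 49.5, 48.4 and 54.2 CPM in si-NC libraries. The groups did not overlap and the log2 fold change was −0.44 ± 0.09 (SE; edgeR adjusted p = 0.028), a call kept in 1 of the 6 fits with a library left out.

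Assembly factors build the complexes and are not part of them. Of 15 for complex I, all tested, 3 fell and 0 rose, with a median of −0.20. TMEM126B, which helps to build the membrane arm, averaged 25.2 ± 2.80 CPM in si-SNHG17-1 libraries and 46.5 ± 3.62 CPM in si-NC libraries (SD, n = 3 each). Its log2 fold change was −0.88 ± 0.12 (SE; edgeR adjusted p = 0.0065), and the call held with each library left out. COA1, of the same assembly complex, gave −0.47 ± 0.07 (SE; edgeR adjusted p = 0.0078; lost without replicate 1 of si-SNHG17-1), and NDUFAF3 gave −0.44. The 4 factors of complex II and the 6 of complex III had no call and medians of −0.28 and 0.02. SDHAF2, the flavin attachment factor of SDHA, gave −0.34 and UQCC2 0.02, with overlap in both.

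For complex IV, 23 rows of 22 assembly genes were tested, of which 3 fell and 0 rose, with a median of −0.09. COA4 averaged 56.2 ± 0.466 CPM in si-SNHG17-1 libraries and 89.2 ± 2.50 CPM in si-NC libraries (SD, n = 3 each), a log2 fold change of −0.67 ± 0.07 (SE; edgeR adjusted p = 0.0032). COX20, a chaperone of the mitochondrially encoded subunit COX2, gave −0.66 ± 0.11 (SE; edgeR adjusted p = 0.011), a call lost without replicate 1 or 2 of si-SNHG17-1. COA7, the last of the 3, gave −0.33. The 3 factors of complex V had no call and a median of −0.07, with ATPAF1, a chaperone of the beta subunit, at −0.07.

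Of 12 regulators of chain genes and of mitochondrial transcription, 1 fell and 0 rose, with a median of 0.04. Over all genes tested 5.21% fell, so this 1 call is not read as a result about the list. The call was POLRMT, the mitochondrial RNA polymerase, at −0.34 ± 0.08 (SE; edgeR adjusted p = 0.040), lost in each fit with a library left out. NRF1, GABPA and YY1, the factors whose letters were searched in the promoters, gave 0.14, 0.26 and 0.19, and PPARGC1A, a coactivator of chain genes, gave 0.01, none of them called.

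The citric acid cycle supplies the chain with NADH and succinate. Of its 14 enzyme genes, 6 fell and 1 rose, with a median of −0.29, while 5.21% of all genes tested fell and 5.25% rose. OGDH, of the 2-oxoglutarate dehydrogenase complex, averaged 413 ± 9.39 CPM in si-SNHG17-1 libraries and 585 ± 6.86 CPM in si-NC libraries (SD, n = 3 each). Its groups lay far apart, with a log2 fold change of −0.50 ± 0.05 (SE; edgeR adjusted p = 0.0031). SUCLG1, of the succinate-CoA ligase, gave −0.47 ± 0.07 (SE; edgeR adjusted p = 0.0097), and both calls held with each library left out. The other falls were DLD, FH, MDH2 and IDH3B, at −0.65, −0.41, −0.33 and −0.35.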

How the data were processed

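RNA sequencing counts of 6 libraries were analysed, 3 per group, grouped and numbered by their titles. The authors deposited raw counts per gene, whole numbers with no normalisation, in a single table; per the submitters' processing notes the tools and build were HISAT2 and GRCh38. For the counting program, the annotation and the use of strand, the sources used here give nothing. Gene types, exon lengths and 3′ UTRs came from GENCODE 29, where 84 of 84 members were found, and promoters from RefSeq.

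The whole table was fitted in R 4.3.3 with edgeR 4.0.16: filterByExpr (minimum count 10, minimum total 15; 18679 genes kept), TMM scaling, the quasi-likelihood F test and Benjamini-Hochberg adjustment, called at an adjusted p under 0.05. Replicates of a group differed by more than sampling noise (chi-square over its degrees of freedom, 26.5 to 55.2), so each library counted as 1 sample. The SE of a fold change was taken from its size over the root of F. CPM are TMM-scaled, except markers and floors, which are per total count. Per length values use the exon union. The scripts were tested on simulated data.

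Members, lists, motifs and the word searched were chosen with earlier results of these data known, so list counts and medians carry no p-value. Named genes are SNHG17, each called member, per complex the member with the most counts and those with the highest and lowest log2 fold change, and per list, in either direction, the 2 called genes of lowest adjusted p, or its most abundant tested gene where none was called. Some genes this rule takes are not reported here. Others are named to describe a complex member by member, after their values were seen. Alternatives were median-of-ratios factors, total counts, 2 other filters, DESeq2 1.42.0, limma-voom 3.58.1, a replicate block, each library left out and NDUFA4 placed with complex I. Alternatives for the count of members below 0 were added after seeing the data.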

Additional observations from a re-analysis of the deposited data

How the results depend on the processing

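The call of COX8A was kept in every alternative run, and the direction of each complex's median as well. Of all genes, 980 were called higher and 974 lower; without the filter on low counts 627 were lower, with a replicate block 273 were higher and 259 lower, and with a library left out 313 to 694 were higher and 264 to 705 lower. The 7 members called lower became 4 with total counts, 3 without the filter, 2 with the replicate block (COX8A and ATP5J2) and 1 to 4 with a library left out; DESeq2 and limma-voom called 9 each. The 1 called higher became 0 with the replicate block and 0 with each library left out. Counts over all genes are not given here for total counts, DESeq2 and limma-voom. The changes in member calls are therefore not read as results about the members. Same-numbered libraries did not deviate together (correlations of −0.04 to −0.02), so the numbers are not taken as pairs. Members below 0 numbered 64 with total counts and 63 to 66 with a library left out; total counts shifted the median of all genes to 0.04. The log2 fold change of UQCRFS1 turned to 0.027 with total counts and ranged from −0.056 to 0.059 with a library left out, that of UQCC2 from −0.026 to 0.10 and that of ATPAF1 from −0.30 to 0.10; the cause was not tested. Of 416 values of the 32 named genes other than SNHG17 under alternatives, 331 stayed on the same side, 73 lost the call, 5 gained it and 7 reversed. In the fits with a library left out, 134 stayed, 52 lost the call and 6 reversed. These counts include named genes that were not called, which have no call to lose. SNHG17 ranged from −1.53 to −1.48 with a library left out. Depth set a limit for COX6A2, COX7A1, COX7B2, COX8C and ATP5L2, whose 0 to 5 counts per library allow no comparison.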
